A study of Xenopus laevis with 3 samples.

Results

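The phosphatidylinositol phosphate kinases of Xenopus laevis, the African clawed frog, were followed in RNA from testis. Rows of the deposited gene table were kept when their symbol, without a final .L or .S, was one of 10 kinase symbols, and this gave 16 of the 34694 rows. Xenopus laevis is allotetraploid, and the endings .L and .S mark the copies, called homeologs, on its 2 sets of chromosomes. Both copies had a row for 6 symbols, while pip5k1a.S, pip5k1b.L, pip5k1c.S and pi4k2a.L were the only rows of the other 4. RNA came from the mixed cells of whole testis of untreated, outcrossed males, was poly-A selected, and was sequenced in 3 libraries that form a single group. Each library has its own processing date, so date and animal cannot be told apart. Separate animals are not stated, so p-values rest on spread between libraries, which may be technical, and not on spread between known animals.

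Phosphoinositides are membrane lipids made by stepwise phosphorylation of phosphatidylinositol, here written PI. The PI 4-kinases (PI4K) make PI4P, and the PIP5K enzymes turn PI4P into PI(4,5)P2, the lipid that phospholipase C splits into the calcium-releasing messenger IP3 and diacylglycerol. The PIP4K enzymes reach PI(4,5)P2 by another route, from PI5P, and are known in mammals to hold down PI5P and to affect the PIP5K enzymes. In Drosophila the PI4K beta homolog is needed for spermatocytes to complete cytokinesis.

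The libraries held 70580016, 68378714 and 61212304 counts in replicates 1, 2 and 3. Markers of spermatids were detected in 10 of 11 rows and markers of meiosis in 9 of 10. Summed marker levels were 2200, 2881 and 2462 TPM for spermatids in replicates 1, 2 and 3, and 905, 1097 and 962 TPM for meiosis. Spermatogonia markers, at 2281, 2062 and 1929 TPM, were detected in 10 of 14 rows. Most of this came from dazl.L, at 1191, 1309 and 1043 TPM, and ddx4.L, at 480, 352 and 360 TPM. Lower means were those of dmrt1.L at 238 TPM, ddx4.S at 140, dmrt1.S at 112, kit.S at 12.2 and kit.L at 7.33. Among the rows of zbtb16, sall4, nanos1 and nanos3, the highest mean was 0.943 TPM. Somatic markers differed to varying degrees between libraries, 11.0-fold for smooth muscle at 113, 450.5 and 1245 TPM (10 of 10 rows detected) and 2.54-fold for Leydig cells at 605, 852 and 1537 TPM (8 of 8), while Sertoli cells were at 744, 571 and 859 TPM (12 of 12) and endothelium at 39.7, 30.8 and 32.4 TPM (9 of 9). The Leydig rows were divided, with cyp17a1.L at 358, 517 and 728 TPM but both copies of scarb1 highest in replicate 1. For scarb1.L the levels were 106, 38.7 and 60.3 TPM. Leukocyte markers were at 83.2, 61.5 and 238 TPM (8 of 9), with 2.14, 1.49 and 131 TPM from mpo.S alone. Across the lists for erythrocytes, oocytes, fat and liver, the range between libraries was 1.26-fold to 2.20-fold. TPM, as deposited, is abundance per coding length, scaled to the same total in each library and without the library factors used below for CPM. In whole tissue, fewer cells of a type and less RNA per cell cannot be told apart.

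All 16 kinase rows were detected, which required more than 3 counts and 0.5 or more CPM, counts per library scaled to a common size, in every library, as were 66.7% of all rows. The median of their mean levels was 17.8 TPM, against 9.72 TPM over all detected rows, and 12 of the 16 kinase rows lay above 9.72 TPM. Transcripts of the PIP4K class were the most abundant. Their 6 rows summed to 407, 541 and 410 TPM in replicates 1, 2 and 3, the 7 PI4K rows to 159, 151 and 130 TPM, and the 3 PIP5K rows to 63.1, 66.2 and 67.7 TPM. The ranges of the class sums did not overlap, and PIP4K held 67.9 ± 3.33%, PI4K 22.1 ± 2.76% and PIP5K 9.98 ± 1.21% of the kinase total (SD, n = 3).

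**Figure D1:**
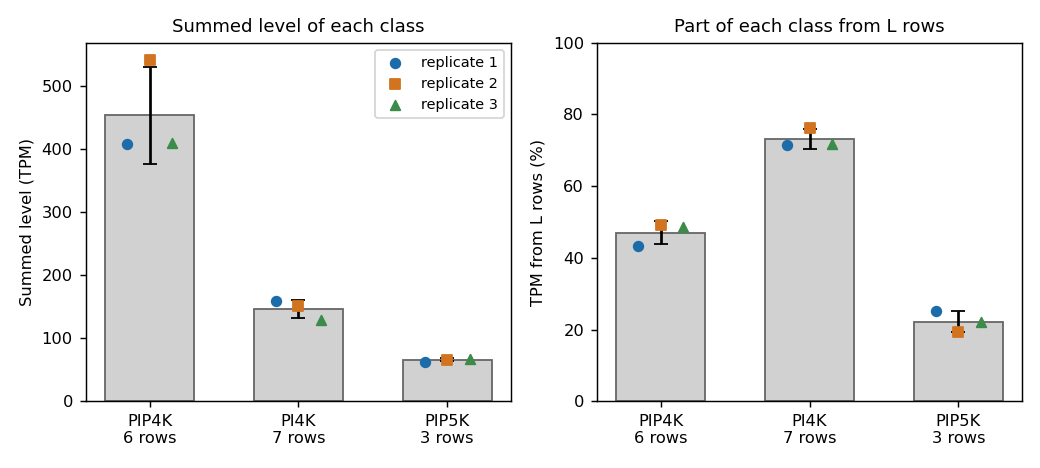
Left, summed level in TPM of the PIP4K, PI4K and PIP5K rows in each library; right, the percent of that sum from L rows. Bars are means of 3 libraries and error bars SD; PIP4K stood at 453 ± 76.4 TPM, PI4K at 146 ± 14.98 TPM and PIP5K at 65.7 ± 2.35 TPM.

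Within libraries, PIP4K exceeded PI4K by 1.62 ± 0.24 on the log2 scale, or 3.08-fold, and PIP5K by 2.77 ± 0.23, or 6.83-fold (SD, n = 3). PI4K exceeded PIP5K by 1.15 ± 0.20, or 2.22-fold (SD, n = 3). Each ratio had the same direction in 3 of 3 libraries. A two-sided exact permutation test that flips signs gave p = 0.25 for each, not adjusted over the 3 ratios, and 3 libraries allow no smaller value. The lead over PI4K depends on dividing by coding length, because pi4ka is far longer than the other genes: in CPM, without that division, it was 0.57 on the log2 scale, while that of PI4K over PIP5K was 1.96. The classes also differ in how many rows they have, and per gene symbol the lead of PIP4K over PI4K was 2.04 and that of PI4K over PIP5K was 0.74. Per symbol, the lead of PIP4K over PIP5K stayed at 2.77, since both have 3 symbols, although PIP4K has 6 rows and PIP5K 3. It makes no allowance for PIP5K copies without a row under these symbols, and whether such copies have other names was not examined.

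In the PIP4K class, pip4k2c and pip4k2b made up nearly all of the level. The product of pip4k2c has very low kinase activity of its own in mammals. Its L copy stood at 48.1, 113 and 61.1 TPM in replicates 1, 2 and 3, and its S copy at 196, 239 and 175 TPM. The L and S values did not overlap, S was higher in every library, and the L copy was the most variable of the kinase rows by CPM. By TPM its range between libraries was 2.35-fold, less than the 2.92-fold range of pi4ka.L. Together the copies reached 277 ± 64.9 TPM (SD, n = 3).

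The gene pip4k2b, whose product is partly nuclear in mammals, had the opposite order of copies. Levels were 125, 151 and 136 TPM for pip4k2b.L and 29.3, 27.2 and 29.4 TPM for pip4k2b.S, again without overlap. The sum was 166 ± 12.3 TPM (SD, n = 3). The NCBI gene table lists pip4k2a.S among the former names of pip4k2b.S, and the rows are called here as the deposited table names them.

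Both copies of pip4k2a were scarce, and they took the last 2 places among the 16 rows. In mammals this gene encodes the most active PIP4K. Levels were 4.01, 1.87 and 2.0 TPM for pip4k2a.L, from 321, 148 and 143 counts, and 5.33, 8.19 and 6.62 TPM for pip4k2a.S, from 427, 647 and 473 counts. The copies summed to 9.34 ± 0.721 TPM (SD, n = 3), so that within the class the summed levels of pip4k2c, pip4k2b and pip4k2a did not overlap.

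**Figure D2:**
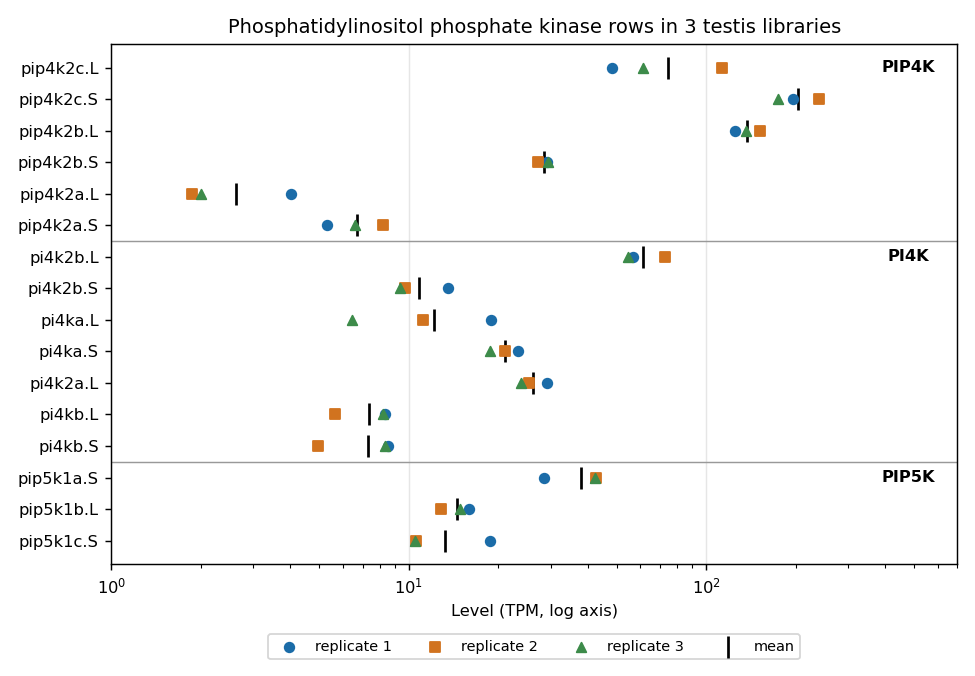
Level of each of the 16 kinase rows in TPM on a log axis, by class, with 1 point per library and a vertical mark at the mean. The row pip4k2c.S averaged 203 ± 32.7 TPM and pip4k2a.L 2.63 ± 1.20 TPM (SD, n = 3), the ends of the range.

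The PI4K class holds 2 families, the type II enzymes pi4k2a and pi4k2b and the type III enzymes pi4ka and pi4kb. The leading row was pi4k2b.L, whose product moves between cytosol and membranes in mammalian cells. It stood at 57.0, 72.8 and 54.6 TPM in replicates 1, 2 and 3, and pi4k2b.S stood at 13.5, 9.70 and 9.37 TPM. The lowest L value was over the highest S value. The related pi4k2a, an enzyme of Golgi and endosome membranes, had its single row pi4k2a.L at 29.1, 25.3 and 23.8 TPM, the least variable kinase row by CPM.

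The gene pi4ka encodes the large enzyme that makes PI4P for the plasma membrane. Its levels were 18.9, 11.2 and 6.46 TPM for pi4ka.L and 23.3, 21.0 and 18.8 TPM for pi4ka.S in replicates 1, 2 and 3. Within each library S was higher, but across libraries the copies overlapped, since pi4ka.L in replicate 1 was just above pi4ka.S in replicate 3. The kinase of the Golgi, pi4kb, had 8.30, 5.63 and 8.20 TPM for pi4kb.L and 8.52, 4.96 and 8.34 TPM for pi4kb.S. Its copies overlapped throughout and both were lowest in replicate 2.

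In the PIP5K class, pip5k1a.S led with 28.5, 42.8 and 42.3 TPM in replicates 1, 2 and 3. This enzyme is one of the main sources of PI(4,5)P2 in mammalian cells. Its relative pip5k1b.L stood at 16.0, 12.9 and 14.9 TPM, below pip5k1a.S in every library. The third member, pip5k1c.S, known in mammals from focal adhesions and synapses, had 18.7, 10.6 and 10.5 TPM from 885, 494 and 443 counts. Its deposited coding length is 720 bases, against 1764 for pip5k1a.S and 1614 for pip5k1b.L, and whether this gene model is complete was not tested. Dividing the same counts by the mean of those lengths, 1689 bases, would put pip5k1c.S at 5.65 ± 2.01 TPM (SD, n = 3). This choice was made after the data were seen. If the model is incomplete, reads over the missing part may not have been counted, so the level under a complete model is unknown.

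Ordered by mean level, 7 of the 15 steps between neighbouring rows were beyond their spread, meaning the same direction in every library and a mean log2 ratio over its SD. The same values set the order, so this describes the rows and is not a test. How many such steps would arise by chance was not estimated. The steps of this kind at the top were from pip4k2c.S to pip4k2b.L, by 0.56 ± 0.17 on the log2 scale, and from there to pip4k2c.L, by 0.98 ± 0.50 (SD, n = 3). The rows pip4k2c.L and pi4k2b.L were not separated, nor were pip5k1a.S, pip4k2b.S and pi4k2a.L, each from the next. Further down, pip5k1b.L, pip5k1c.S, pi4ka.L and pi4k2b.S formed a run of neighbours within their spread, and so did pi4kb.L, pi4kb.S and pip4k2a.S. Steps beyond their spread also separated pi4k2b.L from pip5k1a.S (0.71 ± 0.32), pi4k2a.L from pi4ka.S (0.31 ± 0.04) and pi4ka.S from pip5k1b.L (0.53 ± 0.19). The others were from pi4k2b.S to pi4kb.L (0.56 ± 0.32) and from pip4k2a.S to pip4k2a.L (1.42 ± 0.90). The difference between the pip4k2a copies, tested below, was not called without replicate 2 or without replicate 3.

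The L and S copies were compared over all 6627 homeolog pairs with enough counts, among them the 6 kinase pairs. With the library as a block and Benjamini-Hochberg adjustment over all pairs at a threshold of 0.05, the quasi-likelihood test of edgeR called 34.4% of all tested pairs with L higher and 26.7% with S higher, 61.1% in all. Of the 6 kinase pairs, 2 were called with L higher and 3 with S higher. These are few pairs, and 2 of the calls with S higher did not hold without replicate 2 or without replicate 3. The share of pairs called is therefore no result about the kinases. The median absolute log2 ratio was 1.48 over the 6 pairs and 0.92 over all tested pairs.

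L was higher for pi4k2b by 2.51 on the log2 scale (SE 0.21), or 5.69-fold, with an adjusted p of 0.000713 from edgeR. The ratio was 2.04, 2.86 and 2.50 in replicates 1, 2 and 3. For pip4k2b, L was higher by 2.26 (SE 0.14), or 4.79-fold, with an adjusted p of 0.00049 from edgeR, and 2.07, 2.46 and 2.20 by library. By absolute ratio these 2 pairs ranked high among all tested pairs, at percentiles 84.7 and 82.1.

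S was higher for pip4k2c, with a log2 ratio of L to S of -1.54 (SE 0.20, adjusted p = 0.0024, edgeR) and -2.02, -1.08 and -1.51 in replicates 1, 2 and 3. For pip4k2a the ratio was -1.43 (SE 0.41, adjusted p = 0.0302, edgeR), with -0.37, -1.91 and -1.54 by library. For pi4ka it was -0.92 (SE 0.25, adjusted p = 0.0262, edgeR), with -0.30, -0.91 and -1.53 by library. S was above L in 3 of 3 libraries for each of these pairs. The calls of pip4k2a and pi4ka did not hold without replicate 2 (-1.06 with adjusted p = 0.123, and -0.92 with adjusted p = 0.0985, edgeR) or without replicate 3 (-1.27 with adjusted p = 0.0996, and -0.61 with adjusted p = 0.0653, edgeR). Without the library as a replicate block, the call of pi4ka was lost as well, at -0.82 with an adjusted p of 0.0528 from edgeR.

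The sixth pair, pi4kb, was not called, with a log2 ratio of 0.04 (SE 0.16, adjusted p = 0.841, edgeR) and -0.04, 0.18 and -0.02 in replicates 1, 2 and 3. Only 2.5% of tested pairs had an absolute ratio as small. How reads that match both copies were counted is not stated, so ratios of near-identical copies are uncertain, and the identity between copies was not examined here.

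**Figure D3:**
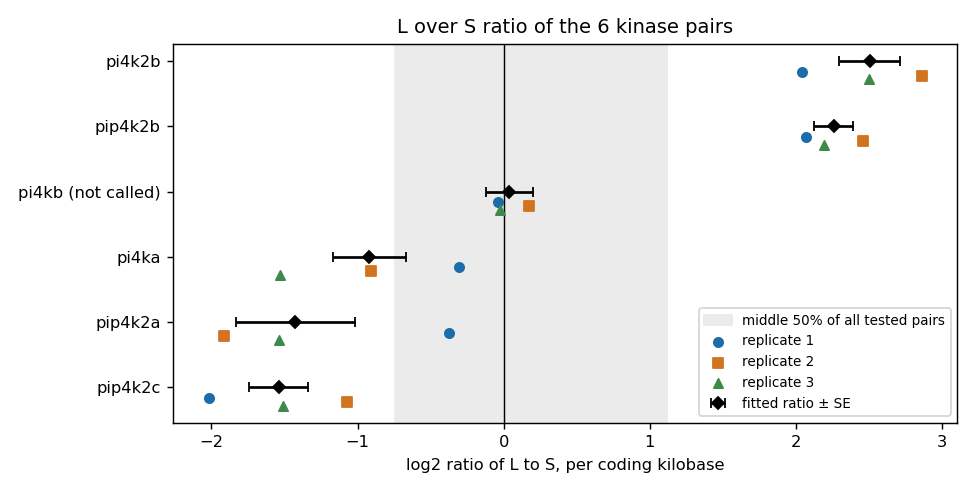
Log2 ratio of L to S per coding kilobase for the 6 kinase pairs, with coloured points per library and black diamonds for the edgeR estimate ± SE; the grey band spans the lower to the upper quartile of all tested pairs, from -0.75 to 1.12. The estimates of pi4k2b and pip4k2b lie to the right of the band, those of pip4k2c, pip4k2a and pi4ka to its left, and that of pi4kb near 0, while the replicate 1 points of pip4k2a and pi4ka lie inside the band.

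Ratios differed between libraries more for some pairs than for others. The SD of the log2 ratio over libraries was 0.80 for pip4k2a, 0.61 for pi4ka, 0.47 for pip4k2c and 0.41 for pi4k2b, against medians of 0.41, 0.21, 0.21 and 0.25 in pairs of like abundance. It was 0.20 for pip4k2b and 0.12 for pi4kb, against 0.21 and 0.30.

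By class, L rows carried 73.2 ± 2.71% of the PI4K level, 47.1 ± 3.21% of the PIP4K level and 22.2 ± 2.94% of the PIP5K level (SD, n = 3). For PI4K, where pi4k2a.L has no S row, L carried 67.3% over the symbols with both copies, and 57.0% of the class by CPM. The symbols with both copies differed. Mean L and S levels were 61.4 and 10.9 TPM for pi4k2b, but 12.2 and 21.1 TPM for pi4ka. For pi4kb they were 7.38 and 7.27 TPM. In the PI4K class L summed to 107 ± 12.1 TPM and S to 39.2 ± 5.38 TPM, and in the PIP4K class L summed to 214 ± 46.7 TPM and S to 239 ± 32.6 TPM (SD, n = 3). The near balance in PIP4K joins opposite ratios of pip4k2b and pip4k2c. The PIP5K share says nothing of homeologs of 1 gene, since no PIP5K symbol had both rows. Over all 16 rows, L carried 50.4 ± 1.70% (SD, n = 3).

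Libraries were compared on CPM with TMM library factors. The coefficient of variation over the 3 libraries ran from 4.49% for pi4k2a.L to 51.3% for pip4k2c.L, with a median of 20.2% against 20.7% over all detected rows. It lay above the median of rows of like abundance in 10 of 16 kinase rows. The row pip4k2c.L had 59.9, 160 and 85.5 CPM in replicates 1, 2 and 3, a 2.68-fold range, and pi4ka.L had 104, 69.8 and 39.9 CPM, a 2.60-fold range. Counting error is small beside these, at 1.22% and 1.42% of the mean count. Their S copies varied less, at 215, 299 and 215 CPM for pip4k2c.S and 128, 132 and 116 CPM for pi4ka.S.

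Replicate 2 had the highest CPM of 7 rows, among them the 4 of highest mean TPM, pip4k2c.S, pip4k2b.L, pip4k2c.L and pi4k2b.L. The other 3 were pip5k1a.S, pip4k2a.S and pi4ka.S. Replicate 1 was highest for 5 rows, pi4ka.L, pi4k2a.L, pi4k2b.S, pip5k1c.S and pip4k2a.L, and replicate 3 for 4, both copies of pi4kb with pip4k2b.S and pip5k1b.L. Marker sums are in TPM, to which no TMM factor was applied. By summed TPM, spermatid, meiosis, oocyte and fat markers were highest in replicate 2, and spermatogonia, endothelial and erythrocyte markers in replicate 1. Oocyte markers were detected in 4 of 8 rows and fat markers in 5 of 8, and their rows differed. In replicates 1, 2 and 3, figla.L had 92.7, 128 and 88.3 TPM but gtf3a.L 89.5, 57.6 and 63.6. For fat, fabp4.L had 34.7, 79.0 and 38.1 TPM but lpl.L 42.4, 16.6 and 18.7. Smooth muscle, Leydig, Sertoli, leukocyte and liver sums were highest in replicate 3. Sertoli rows were divided, with clu.L at 287, 332 and 429 TPM and inha.L at 259, 105 and 248 TPM in replicates 1, 2 and 3. So were spermatid rows, with tekt1.L at 348, 464 and 325 TPM but cfap44.L at 76.0, 72.0 and 75.4. Of the meiosis rows, sycp3.L had 217, 308 and 249 TPM but smc1b.L 106, 94.5 and 88.4. The highest library of a sum is therefore not that of each of its rows. The highest library can differ between the scales. In replicates 1, 2 and 3, pi4ka.S had 23.3, 21.0 and 18.8 TPM but 128, 132 and 116 CPM. The part of the marked cell types in the differences between libraries was not tested.

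**Figure D4:**
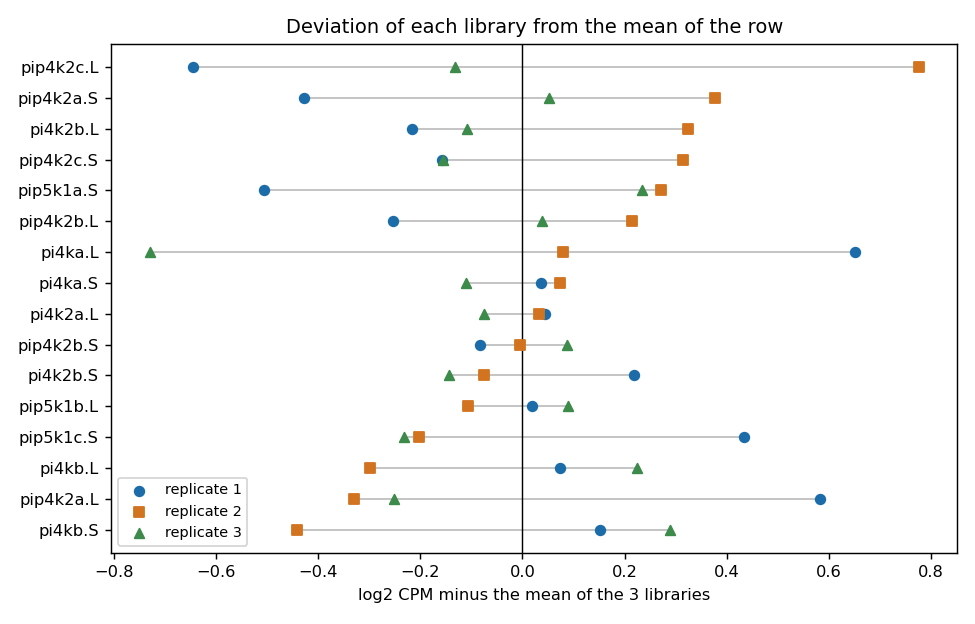
Deviation of each library from the mean of its row, in log2 CPM, for the 16 kinase rows, ordered by replicate 2. The widest spans belong to pip4k2c.L and pi4ka.L, and the narrowest to pi4k2a.L, whose CPM ranged 1.09-fold.

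Other genes of phosphoinositide metabolism set these levels in context. Of 70 symbols in 5 groups, 54 matched 87 rows, 83 of which were detected, and the other 16 symbols were not analysed here. The single row of pip5kl1, a relative of the kinases that has no clear kinase activity of its own in mammals, was among the most abundant. It stood at 273, 153 and 344 TPM in replicates 1, 2 and 3, and its mean of 257 ± 96.2 TPM (SD, n = 3) exceeded that of every kinase row. It did not differ from pip4k2c.S beyond the spread, with log2 ratios of 0.48, -0.64 and 0.98. It was lowest in replicate 2, where pip4k2c.S was highest. Counted with the PIP5K class, a choice made after the data were seen, it would put that class above PI4K, at a log2 ratio of PI4K to PIP5K of -1.10.

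Among genes that supply PI, the PI synthase cdipt.L averaged 28.5 ± 5.201 TPM, the transfer protein pitpnb.L 24.9 ± 4.48 and the CDP-diacylglycerol synthase cds2.S 15.2 ± 5.09 (SD, n = 3). Of the partners and readers of PI4K, the Golgi PI4P reader golph3 had 221 ± 58.5 TPM for golph3.L and 210.3 ± 55.3 for golph3.S, and efr3a.L, of the membrane anchor of pi4ka, 36.3 ± 1.20. The PI 3-kinase group was led by regulatory subunits, pik3r3.S at 91.7 ± 51.1 TPM and pik3r1.S at 33.9 ± 4.06, followed by the catalytic pik3c3.L at 22.9 ± 2.22. The leading phosphatases were sacm1l.L, which removes phosphate from PI4P, at 103 ± 10.2 TPM, and pten.S and pten.L, which act on PI(3,4,5)P3, at 43.2 ± 24.8 and 38.98 ± 4.52. Apart from pip5kl1.S and both copies of golph3, the rows named here had lower means than the 2 leading kinase rows.

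**Figure D5:**
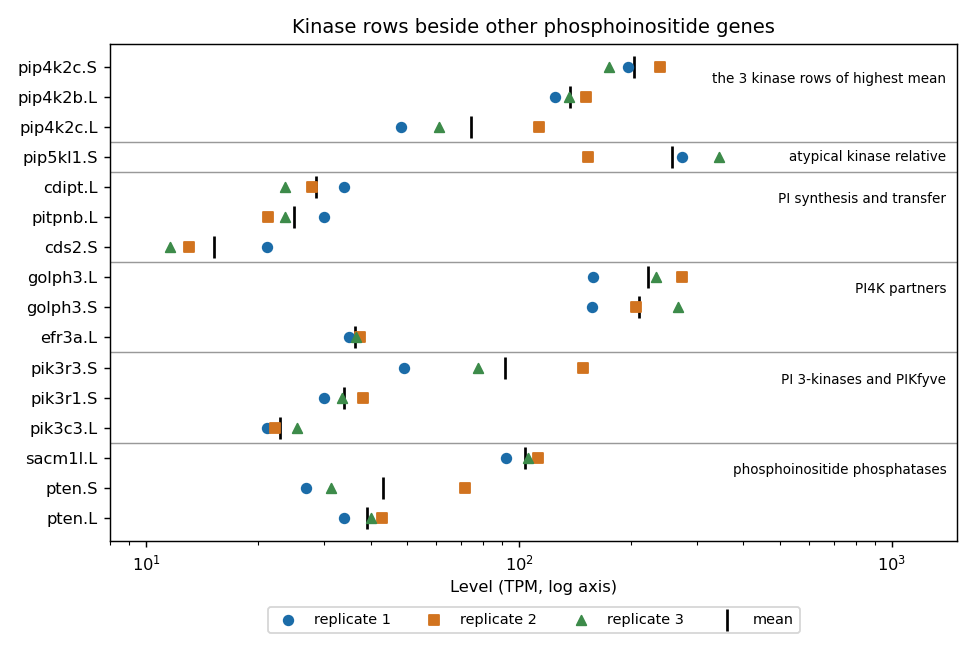
Level in TPM on a log axis, by library and with the mean, of the 3 most abundant kinase rows, of pip5kl1.S, and of the 3 detected rows of highest mean in each other group. The rows with a mean above pip4k2b.L, at 137 ± 13.4 TPM (SD, n = 3), are pip4k2c.S, pip5kl1.S and both copies of golph3.

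Of 33 tested pairs in these groups, 13 (39.4%) had L higher, against 34.4% of all tested pairs, 10 (30.3%) had S higher, against 26.7%, and 10 were not called. These shares are near those of all pairs, and the median log2 ratio was 0.07 against 0.15 over all tested pairs. The widest called ratios with L higher were those of 3 phosphatases, synj1 at 4.41 (SE 0.30), inpp5d at 3.14 (SE 0.27) and inpp4a at 2.87 (SE 0.25), with adjusted p from 0.000537 to 0.000805 (edgeR). The widest with S higher were pik3r3 at -2.94 (SE 0.33), the transfer protein gene pitpnm3 at -2.51 (SE 0.34) and the phosphatase gene mtmr3 at -2.47 (SE 0.37), with adjusted p from 0.00154 to 0.0037 (edgeR). Each of these 6 had 1 direction in 3 of 3 libraries. By group, L and S were higher in 1 and 2 of 3 pairs of PI synthesis and transfer, 3 and 2 of 8 of PI4K partners, 3 and 4 of 8 of PI 3-kinases, and 6 and 2 of 14 of phosphatases. The count with L higher depends on libraries and scaling. It was 8 without replicate 1, 8 without replicate 2, 7 without replicate 3 and 8 with the L and S columns scaled separately. Over all tested pairs the count also fell from 2281 of 6627, so the fall was not confined to these groups. In the same order of settings the count over all pairs was 2019 of 6702, 1872 of 6721, 1845 of 6692 and 2032 of 6627. In each setting this was a smaller fall, in proportion, than in these groups.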

How the data were processed

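RNA from testis was measured in 3 libraries, numbered in accession order and matched to the table by the processing dates in titles and column headers. The deposited table holds whole-number counts and TPM per gene row, per the file headers. The submitters' processing notes name HISAT2 and featureCounts. Not given in the sources used here are versions, the strand setting, the counted feature and the handling of reads with several matches. TPM are the authors' values, counts per deposited gene length scaled to 1000000. They differ from such values recomputed here by at most 0.482% for levels over 1 TPM. Of the deposited lengths, 90.9% are multiples of 3, and they were taken as coding lengths. Of 34694 identifiers, 34693, the 16 kinase rows included, matched symbols of the NCBI table for Xenopus_laevis_v10.1. The authors' build is not given beyond a number in the table's name, so no coordinates are printed.

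CPM used TMM factors of 1.07, 0.956 and 0.979 (edgeR 4.0.16). For homeologs, counts of L and S formed 6 columns, fitted by edgeR's quasi-likelihood test with coding length and TMM-scaled library size in the offset. Of 7764 pairs, 6627 with a summed CPM of at least 1 in every library were tested. The SE is the absolute log2 ratio over the square root of F, an approximation. For ratios by library, 0.5 CPM was added to each copy. Alternatives used limma 3.58.1, DESeq2 1.42.0, other scalings and filters, and each library left out. All kinase rows are named. Of each other group the 3 detected rows of highest mean TPM are named, and over these groups the 3 called pairs of widest ratio in each direction. The members and lists were chosen with earlier results of these data known.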

Additional observations from a re-analysis of the deposited data

How the results depend on the processing

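All 16 kinase rows remained detected at 0.1 and 1 CPM and without any one library, and 15 at 5 CPM. The calls of pi4k2b, pip4k2b and pip4k2c held, in the same direction, under all 11 alternatives tried (other scaling, filter, test, offset or block, and each library left out). Leaving out 1 library gave 3 to 5 called kinase pairs, with S higher in 1 to 3. It gave 14 to 16 called pairs of other phosphoinositide genes, with L higher in 7 to 8. Over all tested pairs it gave 3201 to 3572 calls, against 4049 with all libraries. Without the replicate block 4 kinase pairs were called in place of 5, the pair lost being pi4ka at -0.82. Scaling L and S columns separately left 8 other pairs with L higher and turned pi4kb, never called, to -0.11, and leaving out 1 library gave -0.030 to 0.079 for it. For the classes, CPM without coding length gave log2 ratios of 0.57 for PIP4K to PI4K, 2.53 for PIP4K to PIP5K and 1.96 for PI4K to PIP5K. Means per symbol gave 2.04 and 0.74 for PIP4K to PI4K and PI4K to PIP5K. Without the most abundant row of each class, the ratios to PIP5K were 3.17 for PIP4K and 1.61 for PI4K. With pip5kl1.S in PIP5K they were 0.52 and -1.10. With the longer pip5k1c.S length and unchanged counts they were 2.95 and 1.33. Both alternatives were chosen after seeing the data. The L share of PI4K was 67.3% over symbols with both copies and 57.0% by CPM. The lone PIP5K rows gave no share over symbols with both copies. With 3 libraries, the sign-flip test cannot pass 0.05 in any setting.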

Other observations

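By CPM, which follows read numbers and is not divided by length, pi4ka.S held rank 3 among the kinase rows at a mean of 125 CPM and pi4ka.L rank 6 at 71.1 CPM, against ranks 8 and 11 by TPM. In the NCBI gene table, pi4kb.S and pip5k1a.S lie on the same chromosome with 6 protein-coding genes between them. Over the 3 libraries pi4kb.S averaged 7.27 ± 2.002 TPM and pip5k1a.S 37.9 ± 8.14 TPM (SD, n = 3). The rows of other phosphoinositide genes not detected in every library were cds1.L, ncs1.L, efr3b.S and pip4p2.L. Of these, cds1.L had 2.76, 0.294 and 0.55 TPM in replicates 1, 2 and 3.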
